A study of Mus musculus with 6 samples.

Results

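The 3 GLI transcription factors and a pair of Hedgehog inhibitors, Hhip and Sufu, were examined for binding of tagged GLI3R in mouse cardiac progenitors. The peaks belonging to these 5 genes were those with a summit within 100 kb of the gene on mm10, in either of the 2 deposited ChIP-seq peak lists. This gave 11 peaks of 8019, 5 of the 3640 doxycycline peaks and 6 of the 4379 untreated peaks. The cells were made from mouse embryonic stem cells (strain A2Lox.cre, line GLI3R-FTA) and collected on day 6. All carried the tagged GLI3R gene, which doxycycline switches on. One group received 500 ng/ml doxycycline from day 5, for 24 h, and the other was untreated. Of the 6 libraries 4 were pull-downs on streptavidin beads, which recover the Avi-tagged protein (2 per condition), and 2 were inputs (1 per condition). Both groups came from 1 line, and each had 1 peak list, so no peak has a replicate error and no difference between the lists was tested. The files hold binding and no expression, so the labelled cell type could not be checked against marker genes.

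Hedgehog ligands act through the GLI proteins, which share a zinc finger domain that binds DNA. GLI1 is an activator, and its gene is itself a classical target that reports pathway activity. GLI2 is the main activator made before signalling starts. GLI3 is mostly cut to a short repressor, GLI3R, when ligand is absent. SUFU holds full-length GLI proteins in the cytoplasm and favours their processing to repressors. HHIP sits at the cell surface and binds Hedgehog ligand, and its gene is induced by the pathway, which closes a negative feedback loop. In the developing heart, Hedgehog signalling acts on progenitors of the second heart field.

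Sequence was at hand for the start sites of 4 of the 5 genes (Gli2, Gli3, Hhip and Sufu), as RefSeq windows on GRCm38.p6, the assembly of mm10, of 250 bases before to 50 after the start. Neither list had a peak overlapping any of these 4 windows. Gli1 had no listed window, so its peaks could not be placed against its start. Across the lists 107 of 3640 doxycycline peaks (2.94%) and 8 of 4379 untreated peaks (0.183%) overlapped such a window of some gene. The bases before the start that lie outside the gene are shown for Hhip, which among these 4 genes had the doxycycline peak nearest its start, for Sufu, and for the gene with no peak (Gli3). They read 5′ to 3′ on the gene's strand, and capitals mark the stretch of 9 bases that shares most letters with the GLI motif GACCACCCA on either strand, or 1 such stretch where several tie. The windows are chr8:80058061-80058258 on the minus strand for Hhip, chr19:46396646-46396895 on the plus strand for Sufu and chr13:15463473-15463722 on the plus strand for Gli3.
Hhip: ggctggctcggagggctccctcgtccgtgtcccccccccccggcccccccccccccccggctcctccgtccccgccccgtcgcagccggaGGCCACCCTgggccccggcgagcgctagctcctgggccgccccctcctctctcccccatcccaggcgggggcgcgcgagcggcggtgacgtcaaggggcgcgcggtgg
Sufu: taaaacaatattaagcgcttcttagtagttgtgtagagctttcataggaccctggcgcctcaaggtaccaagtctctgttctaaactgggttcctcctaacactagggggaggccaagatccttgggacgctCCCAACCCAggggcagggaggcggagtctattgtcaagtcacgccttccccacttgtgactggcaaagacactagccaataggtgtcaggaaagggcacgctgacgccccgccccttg
Gli3: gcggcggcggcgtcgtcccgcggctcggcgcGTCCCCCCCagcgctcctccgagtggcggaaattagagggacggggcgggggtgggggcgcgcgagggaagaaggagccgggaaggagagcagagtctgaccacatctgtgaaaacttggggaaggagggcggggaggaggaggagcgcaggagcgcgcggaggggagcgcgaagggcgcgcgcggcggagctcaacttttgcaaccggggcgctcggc

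The exact motif, searched on both strands (TGGGTGGTC on the other), was in 0 of the 4 windows of these genes and in 83 of the 32851 windows in the table (0.253%). The shorter GACCACCC was also in 0 of the 4, and in 265 of all (0.807%). The best stretch at Hhip, GGCCACCCT, shared 7 of 9 letters with the motif, as did or exceeded 43.7% of all windows cut to the same 198 bases. At Sufu (CCCAACCCA, 1 of 4 equally good stretches) and Gli3 (GTCCCCCCC, 1 of 7) the best stretches shared 6 of 9 letters, a level that 98.6% of all windows reached in their 250 bases before the start. The peaks assigned to these 4 genes lie outside these windows, and no peak sequence was analysed here.

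Of the 5 genes, 4 (Gli1, Gli2, Hhip and Sufu) lay within 100 kb of a doxycycline summit, against 31.3% of 21883 protein-coding genes. Of the 5, 3 (Gli1, Gli2 and Sufu) had an untreated summit, against 30.2% of all genes. Of the 5 doxycycline summits 4 were inside a gene of the set, 2 of them in Hhip. Of the 6 untreated summits 1 was, and 4 of the 6 belong to Gli2. The share of all assigned summits that lie inside a gene was not worked out. These counts are therefore not read as a difference between the lists. By gene, 3 of 5 (Gli1, Gli2 and Hhip) held a doxycycline summit within their own interval, against 6.16% of all genes, and 1 of 5 (Gli2) an untreated one, against 5.96%. These genes are long, 4 of the 5 at least 91.9 kb, and longer genes more often had a summit. Among the 2685 genes of at least that length, 44.6% lay within 100 kb of a doxycycline summit and 50.1% of an untreated summit, and 26.2% and 28.6% had one inside. These shares apply to the 4 long genes and not to Gli1. Of those 4, Gli2, Hhip and Sufu had a doxycycline summit within 100 kb, and Gli2 and Sufu an untreated one. Gli2 and Hhip held a doxycycline summit inside, and Gli2 an untreated one.

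Most of the doxycycline peaks ranked high in their own list, and most of the untreated peaks did not. Enrichment at the summit ran from 4.01-fold to 10.1-fold in the doxycycline list (median 7.31-fold, against 5.50-fold over that list). In the untreated list it ran from 3.93-fold to 7.07-fold (median 4.72-fold, equal to the 4.72-fold of that list). Of the 5 doxycycline peaks 4 had a −log10 q of at least 5, as did 33.3% of that list. Of the 6 untreated peaks 1 did, as did 9.41% of that list. By gene this left Gli1, Hhip and Sufu with a doxycycline peak (13.7% of all genes) and Gli2 with an untreated one (3.33%). The pileup, the number of fragments over a summit, was 5 to 13 at the doxycycline peaks and 4 to 8 at the untreated peaks. The 95% Poisson intervals given below are for these fragments, carried to the fold. They cover counting error only, and PCR copies of a fragment are not independent.

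**Figure D1:**
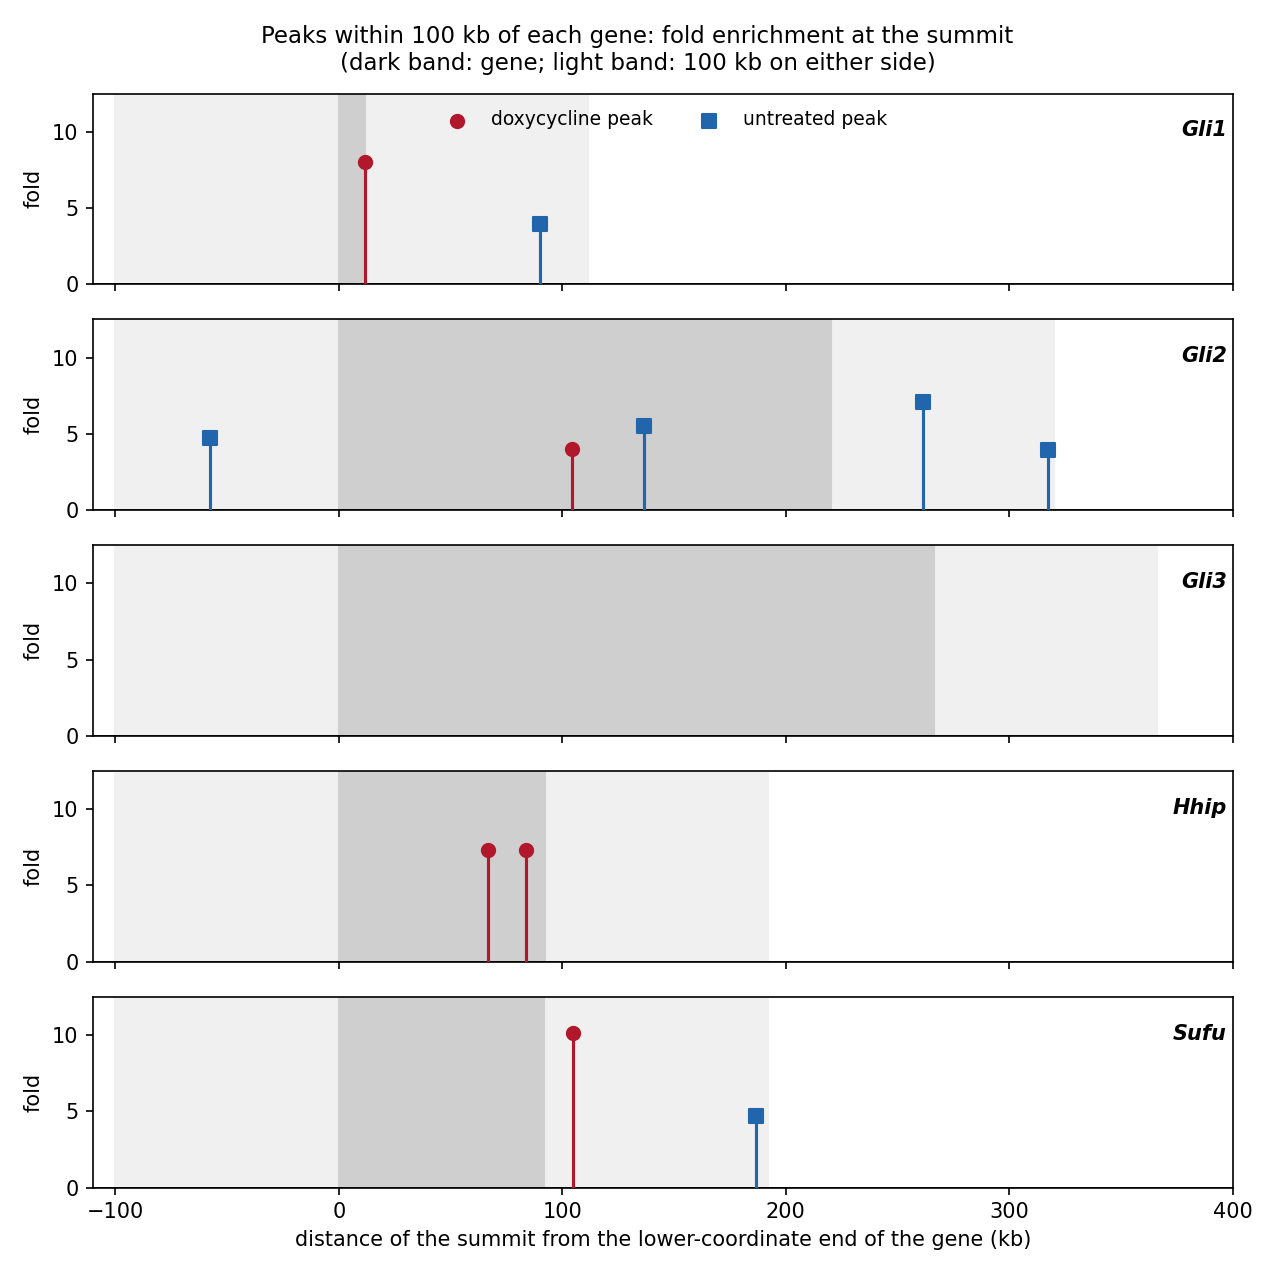
Fold enrichment (vertical axis) of each assigned peak against the distance of its summit from the lower-coordinate end of the gene in kb, with 1 panel per gene, the gene as a dark band and 100 kb on either side as a light band; circles are doxycycline peaks and squares untreated peaks. Doxycycline summits lie within Gli1, Gli2 and Hhip and 12.7 kb past Sufu, Gli2 has 4 untreated peaks, and Gli3 has none.

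Gli1 (gene ID 14632, chromosome 10, 127329882 to 127341579) had 1 doxycycline peak, which lay across the higher-coordinate end of the gene. The peak ran from 127341393 to 127341930, with 187 bases inside the gene and 351 beyond its end, and its summit was 81 bases inside. The strand and start of Gli1 were not listed, so whether this end is the start of the gene could not be read here. At 538 bases it was the widest of the 11 peaks, against a median of 160 in its list. It was enriched 8.04-fold (4.24 to 14.2) with a pileup of 10 fragments (4.80 to 18.4) over a local expectation of 0.368, the background of the list. Its −log10 q of 7.95 was exceeded by 427 of 3640 peaks (11.7%). Gli1 is the shortest of the 5 genes, at 11.7 kb, and lies in a gene-rich stretch with 9 other protein-coding genes within 100 kb. The nearest of these to the summit was Inhbe, an activin subunit gene 7.90 kb away.

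The untreated peak assigned to Gli1 was another site. It lay 78.3 kb from the gene (127419841 to 127419983) and inside R3hdm2. Its enrichment was 3.93-fold (1.64 to 8.84) with a pileup of 4 fragments, the smallest in the untreated list, and its −log10 q was 1.48. The same −log10 q was shared by 1472 untreated peaks. No untreated summit was closer to the doxycycline summit than 78.4 kb.

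Gli2 (gene ID 14633, chromosome 1, 118834061 to 119054405) had more untreated than doxycycline peaks, 4 against 1. No other protein-coding gene lies within 100 kb of it. The doxycycline peak was inside the gene (118938510 to 118938661), 115 kb from the listed start of the minus-strand transcript, at 4.01-fold (1.75 to 8.46) and 5 fragments. Its −log10 q of 1.59 placed it near the foot of the list, with 3622 of 3640 peaks (99.5%) above it. Its local expectation was 0.497 fragments, above the background of 0.368 that the Gli1 peak had.

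The strongest untreated peak of Gli2, and of all 5 genes, lay outside the gene, 41.1 kb past its higher-coordinate end (119095361 to 119095634). It reached 7.07-fold (3.50 to 13.2) with 8 fragments and a −log10 q of 6.07, exceeded by 236 of 4379 untreated peaks (5.39%). A second untreated peak was inside the gene (118970425 to 118970585) at 5.50-fold (2.52 to 11.05) with 6 fragments. It was the untreated summit closest to the doxycycline one, and they were 32.0 kb apart. The others lay 57.5 kb below the gene (118776478 to 118776664) at 4.72-fold with 5 fragments, and 97.0 kb above it (119151282 to 119151432) at 3.93-fold with 4 fragments. Gli2 is among the longest genes (220 kb, with 3.98% of genes longer) and has a window of 420 kb. Of all genes 0.329% had 4 or more untreated summits within 100 kb, and of the 873 genes at least as long as Gli2 6.64% did.

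Gli3 (gene ID 14634, chromosome 13, 15463723 to 15730026), the endogenous gene of the factor that was pulled down, had no peak in either list. It is the longest of the 5 at 266 kb, and its window of 466 kb is the widest. The nearest summits beyond the window were 175 kb from the gene in the doxycycline list (4.39-fold, 5 fragments) and 200.4 kb away in the untreated list (3.93-fold, 4 fragments). Both had Inhba, another activin subunit gene, as their nearest gene, at 98.9 kb and 73.8 kb. A gene without a listed summit in either list was common, at 48.7% of all genes and 16.7% of the 670 genes at least as long as Gli3. A site at Gli3 with fewer than 5 fragments with doxycycline or 4 without it would not have been listed, so weaker binding was not detectable at this depth.

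**Figure D2:**
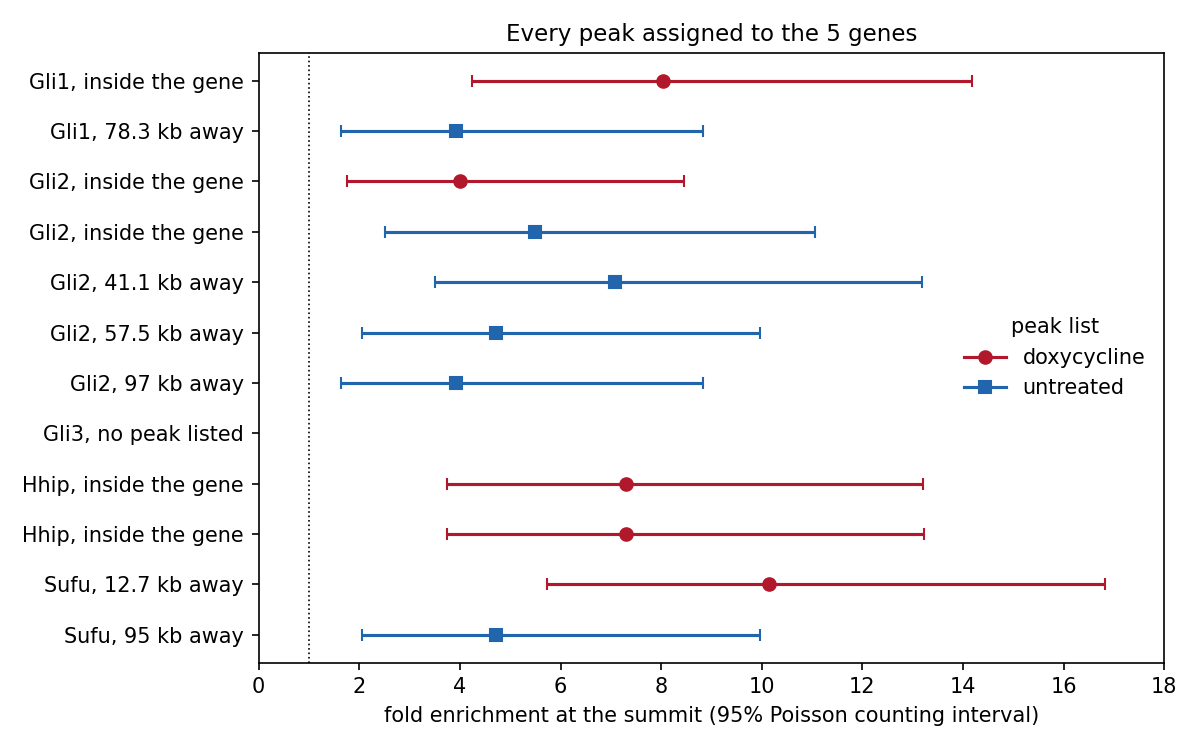
Fold enrichment at the summit of all 11 peaks, with 95% Poisson counting intervals, for the doxycycline list (circles) and the untreated list (squares); the dotted line marks a fold of 1. The intervals of peaks from the 2 lists overlap, from 5.74 to 16.8 at the Sufu doxycycline peak and from 1.64 to 8.84 at the weakest untreated peaks.

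Hhip (gene ID 15245, chromosome 8, 79965850 to 80058060) was the 1 gene of the 5 with more than 1 doxycycline peak and no untreated peak. Both of its peaks were inside the gene, and no other protein-coding gene lies within 100 kb of it. The first (80049366 to 80049557) was 8.53 kb from the listed start, at 7.31-fold (3.74 to 13.2) with 9 fragments. The second (80032576 to 80032723) was 25.4 kb from that start, also at 7.31-fold and 9 fragments. Both had a −log10 q of 6.61, exceeded by 587 of 3640 peaks (16.1%). The nearest untreated summits were 243 kb from the first and 226 kb from the second. Over all genes 4.94% had this pattern of 2 or more doxycycline and 0 untreated summits within 100 kb.

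Sufu (gene ID 24069, chromosome 19, 46396896 to 46488804) had the strongest doxycycline peak of the set, outside the gene. It ran from 46501397 to 46501697 with its summit 12.7 kb past the far end of Sufu and 105 kb from the listed start. The enrichment was 10.1-fold (5.74 to 16.8) with 13 fragments (6.92 to 22.2) and a −log10 q of 12.2, exceeded by 245 peaks (6.73%). The summit was 112 bases from Trim8, a ubiquitin ligase gene, and 5 genes lay within 100 kb of it, Arl3, a GTPase of the primary cilium, among them at 29.6 kb. The peak is thus assigned to Sufu by distance, while Trim8 is the nearest gene. Of the 5 genes Sufu was the 1 whose doxycycline peak had another nearest gene.

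The untreated peak assigned to Sufu (46583704 to 46583875) was 94.97 kb away, inside Sfxn2, a mitochondrial carrier gene. It reached 4.72-fold (2.06 to 9.96) with 5 fragments and a −log10 q of 2.52, the median of its list. It and the untreated peak 97.0 kb from Gli2 lay just inside the 100 kb limit. The summit closest beyond the limit was a doxycycline peak 110 kb from Sufu, at 14.7-fold with 21 fragments and a −log10 q of 22.8, which lay 0.321 kb from Wbp1l. This peak was stronger than any of the 11 and was not counted.

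**Figure D3:**
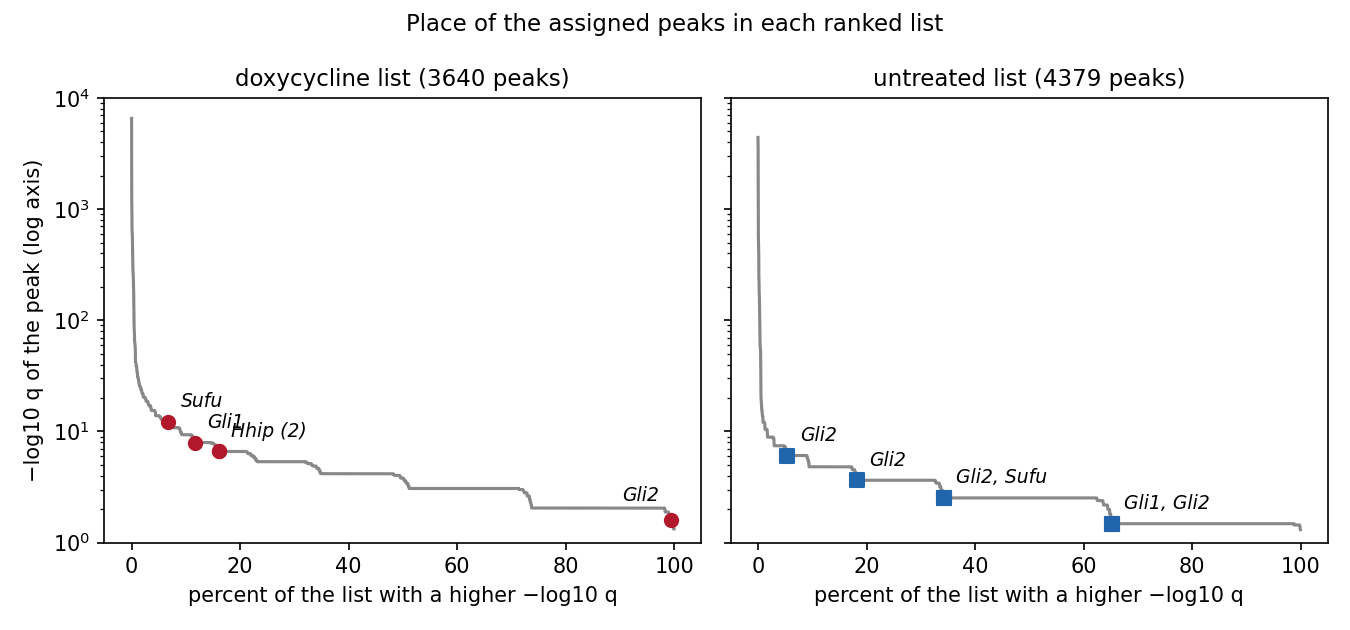
−log10 q (log axis) of all peaks in each list, ordered from the highest, against the percent of the list with a higher value; marked points are the assigned peaks, and (2) marks a gene with both peaks at 1 point. The Sufu, Gli1 and Hhip peaks have at most 16.1% of the doxycycline list above them, and the Gli2 peak has 99.5% of that list above it, while the highest untreated point is a Gli2 peak with 5.39% above it.

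Between the 11 peaks and the other list, the closest pair of summits was 15.0 kb apart. It was formed by the untreated peak assigned to Sufu and the uncounted doxycycline peak near Wbp1l. How often peaks of the 2 lists overlap over all genes was not worked out, so this spacing is not read as a trait of these genes. Per Mb of window, the doxycycline list had 6.84 summits at Hhip, 4.72 at Gli1, 3.43 at Sufu, 2.38 at Gli2 and 0 at Gli3, against 1.70 over the windows of all genes. The untreated list had 9.52 at Gli2, 4.72 at Gli1, 3.43 at Sufu and 0 at Hhip and Gli3, against 1.53. With at most 4 peaks behind each value, neighbouring genes in these orders cannot be separated. The order by strongest peak was Sufu, Gli1, Hhip and Gli2 with doxycycline, and Gli2, Sufu and Gli1 without it. The Poisson intervals of neighbouring genes overlapped in both orders.

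The closeness of the untreated peaks changed with the window. With summits no farther than 50 kb, 4 of the 5 genes met the rule in the doxycycline list (20.0% of all genes) and 1, Gli2, in the untreated list (18.8%). Within 10 kb the counts were 3 (9.55%) and 1 (8.60%). Counting a peak for its nearest gene only gave 3 (10.7%) and 1 (11.2%). Among the 1000 strongest peaks of each list, 3 of the genes lay within 100 kb of a doxycycline summit (11.7%) and 1 of an untreated summit (8.06%).

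Other genes of the pathway were grouped by role into 3 lists, all of whose members matched the gene table. Of 14 receptors, ligands and their carriers 7 (50%) lay within 100 kb of a doxycycline summit and 6 (42.9%) of an untreated one. Over all protein-coding genes these shares were 31.3% and 30.2%. None of the 3 lists was compared with genes of matched length. Ptch1, the receptor that restrains Smo, led with 7 doxycycline summits, the strongest at 17.7-fold. Gas1, a coreceptor (48.0 kb away), and Hhat, which attaches palmitate to the ligand (inside the gene), followed at 6.58-fold, and Smo, the signal transducer, at 6.46-fold (16.4 kb away). In the untreated list Hhat and Scube2, which helps release the ligand, had peaks inside the gene at 6.29-fold, Smo had one 66.4 kb away at 5.50-fold, and Boc, a coreceptor, one inside at 3.93-fold.

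Of 16 genes of GLI processing, transport and degradation, 12 (75%) had a doxycycline summit, against 31.3% of all genes. An untreated summit was near 8 (50%), against 30.2%. Several of the 12 had only 1 doxycycline peak of 5 fragments, the smallest pileup in the doxycycline list, at a −log10 q of 2.05. Ski, a corepressor, held a peak of 9.50-fold inside the gene. Spop, which targets GLI proteins for degradation, followed at 7.31-fold (75.1 kb away), the casein kinase gene Csnk1a1 at 6.94-fold (67.6 kb) and Evc, a cilium protein gene, at 5.85-fold (90.5 kb). The leading untreated peaks were inside Prkacb, a catalytic subunit of protein kinase A, at 7.07-fold and 99.6 kb from Csnk1a1 at 6.24-fold. Evc and Evc2 share 1 untreated peak of 5.50-fold. Over the genes with a summit, the median of the highest −log10 q was 2.56 for doxycycline peaks and 3.08 for untreated peaks. For the receptors, ligands and carriers it was 5.28 and 2.56. The lists themselves had medians of 3.81 and 2.52 over single peaks, so their −log10 q values are not directly comparable.

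Of 8 relatives with GLI-type zinc fingers 2 (25%) had a doxycycline summit, below the 31.3% of all genes. They were Glis2 (6.58-fold, 34.6 kb away) and Glis1 (5.85-fold, inside the gene). In the untreated list 2 (25%) did, against 30.2% of all genes, Glis3 (4.72-fold, inside) and Glis2 (3.93-fold, 84.5 kb away). The median of the highest −log10 q was 4.755 and 2.001 over these genes, doxycycline first. The 5 Zic genes had none in either list, as was the case for 48.7% of all genes.

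**Figure D4:**
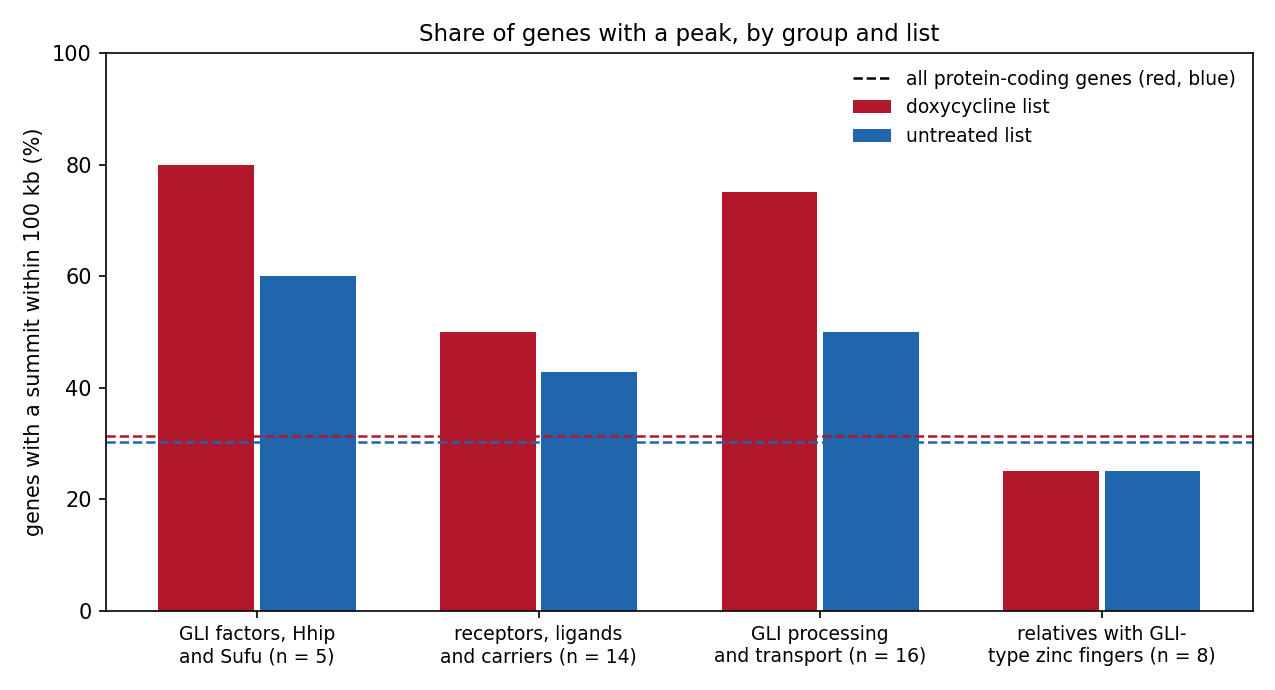
Percent of genes with a summit within 100 kb (bars from 0) in the doxycycline list (red) and the untreated list (blue), for the GLI factors with Hhip and Sufu and for the 3 lists of related genes; dashed lines show all protein-coding genes, at 31.3% and 30.2%. The first group stands at 80% and 60% on 5 genes, where 1 gene is 20 points.

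The profile of each gene was set beside those of the 38 genes in these lists, over 4 values (the number of summits and the highest −log10 q within 100 kb in each list) by Euclidean distance after log2(value + 1). Glis2 was most like Gli1 (distance 0.496), with 1 doxycycline peak at a −log10 q of 5.34 and 1 untreated at 1.48. Glis1 was most like Hhip (0.558), with 2 doxycycline peaks, the stronger at 4.17, and no untreated peak. Smo was most like Sufu (1.14), with 1 peak in each list. Prkacb was closest to Gli2 (1.34), with an untreated −log10 q of 6.07 and 1 peak per list. Gli3 shared its profile of no peaks with 12 of the 38.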

How the data were processed

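Binding of tagged GLI3R was studied by ChIP-seq with 6 libraries, 4 pull-downs and 2 inputs. Groups follow the sample titles, which give GLI3R, although the labels' treatment text has GLI1. Reads were handled on mm10 with MACS2 2.1.1, Bowtie2 2.3.2 and SAMtools 1.5, per the submitters' processing notes. For settings, the use of inputs and any pooling of pull-downs, the answer is not given in the sources used here. The authors deposited, for each peak, a fold enrichment (a ratio), a −log10 p and a −log10 q, which are used as they stand. The authors' deposited score column (10 times −log10 q, decimals dropped) was left aside.

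Where several rows had the same interval, the best summit was kept (doxycycline, 3725 rows and 3640 peaks, and untreated, 4428 rows and 4379 peaks). Pileups were worked back from the Poisson upper tail and fold = (pileup + 1) / (expectation + 1), matching within 0.01 of −log10 p for 99.97% and 100% of peaks. The most frequent expectation, 0.368 or 0.272 fragments, is called background. Distances run from summit to gene interval (0 inside) on 21883 protein-coding genes of GRCm38.p6. Peak intervals are exact 95% Poisson intervals. Simulated pileups (2000 peaks) and planted distances (500) were recovered at 100%. The 5 genes, the lists and the rule for named genes (all assigned peaks, their nearest genes, up to 4 genes per list and condition by −log10 q, the most similar profile) were chosen with earlier results of these data known. The comparisons with long genes, the pattern shares, the per-Mb values and the best partial motif matches were added after the values were seen. Alternatives changed the window, the −log10 q, the number of peaks, the merging and the assignment. Software was Python 3.11.15 with scipy 1.17.1, pandas 2.3.3, numpy 2.4.6 and, for figures, matplotlib 3.10.9.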

Additional observations from a re-analysis of the deposited data

How the results depend on the processing

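With every row counted, all 5 counts for the gene set were as reported. The doxycycline counts stayed within 1.5 times of the reported 5 peaks and 4 genes under each alternative, at 4 to 5 peaks and 3 to 4 genes. The untreated counts did not. From 6 peaks at 3 genes they went to 2 peaks at 1 gene within 50 kb and among the 1000 strongest peaks, to 1 peak at 1 gene within 10 kb and with a −log10 q of at least 5, and to 4 peaks at 1 gene with the nearest gene only. The difference in peaks, doxycycline minus untreated, was −1 as reported and turned to 3 within 50 kb, within 10 kb and with a −log10 q of at least 5, to 2 among the 1000 strongest, and to 0 with the nearest gene only. Fewer peaks count under each of these by construction. Ranking by fold in place of −log10 q gave the same strongest −log10 q for each gene, but it could not have done otherwise. Most genes had 1 peak per list, and the 2 Hhip peaks had equal −log10 q. The 4 untreated Gli2 peaks shared the same local expectation, so fold and −log10 q order them alike. No paired analysis was possible because the deposited lists do not separate replicates, and for the same reason none could be left out. With pileups of 4 to 13 fragments, a site missing from a list may have missed the threshold by 1 fragment.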
